A study of Mus musculus with 8 samples.

Results

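The 8 genes described here carry glucose into cells or handle and sense the carbon that follows: the transporters Slc2a1 (GLUT1) and Slc2a2 (GLUT2), the phosphofructokinases Pfkl and Pfkm, the mitochondrial enzymes Pcx and Glud1, the glucose-responsive transcription factor Mlxipl (ChREBP) and Txnip, which encodes thioredoxin-interacting protein. They were chosen by name, as 8 of 21887 protein-coding genes, and a peak was counted at a gene when its centre lay inside the gene span or within 50 kb of it. The chromatin came from Beta-TC6, an insulin-secreting line from a mouse insulinoma that stands in for the beta cell, harvested at confluence and crosslinked with DSG (a protein-to-protein crosslinker) and formaldehyde. No genotype, treatment or time was varied. Chromatin immunoprecipitation followed by sequencing was done for 6 targets with 1 library each: the circadian transcription factors BMAL1 and CLOCK, the beta-cell homeodomain factor PDX1, the histone marks H3K4me2 and H3K27ac, and the histone variant H2A.Z. Since there was no replicate, no difference could be tested, and every value below describes these libraries only.

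Glucose enters the rodent beta cell mainly through GLUT2 and is split in glycolysis, where phosphofructokinase catalyses the committed step. Pyruvate carboxylase refills the citric acid cycle with carbon from glucose, and glutamate dehydrogenase links that cycle to amino acids, both of which are tied to insulin secretion in beta cells. ChREBP is activated when glucose metabolites accumulate, binds paired E-box-like elements together with its partner Mlx, and induces Txnip, whose product restrains thioredoxin. BMAL1 and CLOCK bind E-boxes (CACGTG) as a dimer, PDX1 binds homeodomain sites with a TAAT core and is known to act at Slc2a2, and H3K4me2 and H3K27ac lie at promoters and enhancers, the acetyl mark at active ones. H2A.Z is found in nucleosomes around many transcription starts.

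Library depth ran from 12892080 tags (BMAL1) to 26678241 tags (H3K4me2). The deposited lists held 4125 BMAL1, 1378 CLOCK and 34883 PDX1 peaks, and 41140 H3K4me2, 29735 H3K27ac and 26455 H2A.Z intervals. The marks at known cell-type genes were checked first. All 15 beta-cell marker genes had H3K27ac in their window, against 73.0% of all protein-coding genes, and 9 had it over a 300-base promoter, among them Ins1, Iapp, Pdx1, Nkx6-1 and Pax6, against 37.6%. PDX1 peaks lay at 14 of the 15, against 58.1%. The alpha-cell genes Gcg and Irx2 also had promoter H3K27ac. None of the 2 delta-cell, 1 PP-cell, 5 acinar, 3 duct, 3 hepatocyte and 3 immune marker genes had H3K27ac over a promoter, though Sst and Bhlha15 had promoter H3K4me2. The windows did not set the cell types apart in this way. H3K27ac lay in the window of 2 of 2 delta-cell, 1 of 1 PP-cell, 3 of 5 acinar, 2 of 3 duct, 3 of 3 hepatocyte and 2 of 3 immune genes. PDX1 lay in the window of 2 of 2, 1 of 1, 4 of 5, 1 of 3, 3 of 3 and 2 of 3 of the same sets.

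Promoter sequences are shown for 4 of the genes because the results below turn on them. They are RefSeq sequences (GRCm38.p6, the coordinates of mm10) from 250 bases before to 50 bases after the listed start, 5′ to 3′ on the strand of the gene, which is the plus strand for each. Capitals mark matches to the motifs searched on both strands: the E-box CACGTG, a paired E-box-like motif made of CACGNG and, after 5 bases of any kind, CNCGNG, and the homeodomain cores TAATTA and TAATTG. The Txnip promoter was the 1 promoter of the 8 genes that overlapped a factor peak, and it held the paired motif.
Txnip (chr3:96557707-96558006): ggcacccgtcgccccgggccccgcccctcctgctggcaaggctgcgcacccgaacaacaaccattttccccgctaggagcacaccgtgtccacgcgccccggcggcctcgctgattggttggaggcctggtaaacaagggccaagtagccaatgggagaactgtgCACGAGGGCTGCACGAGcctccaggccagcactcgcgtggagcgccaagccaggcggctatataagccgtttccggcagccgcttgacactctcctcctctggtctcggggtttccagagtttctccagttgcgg
Mlxipl has 2 listed starts, and the sequence at the upstream one held an E-box, whereas that at the downstream one held TAATTA.
Mlxipl upstream start (chr5:135089640-135089939): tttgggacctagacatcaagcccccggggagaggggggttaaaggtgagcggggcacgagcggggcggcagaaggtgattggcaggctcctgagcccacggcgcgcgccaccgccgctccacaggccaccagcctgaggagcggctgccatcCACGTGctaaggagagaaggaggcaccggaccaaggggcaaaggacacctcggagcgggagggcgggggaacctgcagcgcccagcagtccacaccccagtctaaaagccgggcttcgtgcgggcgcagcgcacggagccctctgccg
Mlxipl downstream start (chr5:135106641-135106940): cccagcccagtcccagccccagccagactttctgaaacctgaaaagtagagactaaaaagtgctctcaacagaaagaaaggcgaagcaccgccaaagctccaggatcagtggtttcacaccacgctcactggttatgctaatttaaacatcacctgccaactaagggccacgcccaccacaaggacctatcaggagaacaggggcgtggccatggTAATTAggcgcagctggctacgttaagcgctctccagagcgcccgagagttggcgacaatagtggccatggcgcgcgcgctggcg
The upstream Pcx promoter held an E-box near its 5′ edge.
Pcx upstream start (chr19:4510222-4510521): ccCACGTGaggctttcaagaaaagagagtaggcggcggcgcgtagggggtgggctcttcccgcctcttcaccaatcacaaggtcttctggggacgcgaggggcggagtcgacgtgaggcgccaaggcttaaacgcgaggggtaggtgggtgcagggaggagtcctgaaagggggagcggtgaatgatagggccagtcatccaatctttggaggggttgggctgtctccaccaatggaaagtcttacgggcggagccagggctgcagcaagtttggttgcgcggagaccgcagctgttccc
The promoter of the beta-cell transporter Slc2a2 held none of the motifs and was poor in G, C and CpG.
Slc2a2 (chr3:28697653-28697952): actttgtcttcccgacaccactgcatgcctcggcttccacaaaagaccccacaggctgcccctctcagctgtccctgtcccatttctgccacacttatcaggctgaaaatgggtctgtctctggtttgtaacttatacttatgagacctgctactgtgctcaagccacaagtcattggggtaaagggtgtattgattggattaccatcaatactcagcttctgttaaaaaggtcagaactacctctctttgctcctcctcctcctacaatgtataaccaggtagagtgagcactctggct

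The 8 genes have 13 listed starts. G and C made up 65.3% of the Txnip promoter and 48% of the Slc2a2 promoter, against a median of 56.3% over all 21263 promoters. CpG numbered 24 at Txnip and 2 at Slc2a2, against a median of 13. CACGTG occurred in 3 of the 13 promoters, against 7.84% of all promoters. The 3 were Pfkm (136 bases before its first start), Pcx and Mlxipl upstream (98 bases before the start), and none of them lay inside a BMAL1 or CLOCK peak. The paired motif occurred in 1 of the 13 and in 0.531% of all promoters. TAATTA was found in 1 of 13 (Mlxipl downstream) against 4.53% of all, and TAATTG in 1 of 13 (Pfkm, first start) against 6.83%. A match describes letters in a window and does not show that a protein binds there, and the absence of a match concerns these letters and this window only.

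BMAL1 had peaks at 6 of the 8 genes, against 21.3% of all protein-coding genes, and CLOCK at 5, against 13.1%. PDX1 had peaks at 6, against 58.1%. H3K4me2, H3K27ac and H2A.Z each occurred at all 8, against 81.2%, 73.0% and 72.7% of all protein-coding genes. Pfkm, Pcx, Glud1 and Mlxipl had peaks in all 6 lists, a pattern shared by 4.52% of all genes. Slc2a2 lacked a CLOCK peak, Txnip a BMAL1 peak, Slc2a1 both CLOCK and PDX1 peaks, and Pfkl all 3 factors. The median window of the 8 genes was 132.4 kb, against 117.2 kb for all genes, and each window also held between 1 and 7 other protein-coding genes, so a peak in a window is not thereby assigned to the gene.

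Directly over promoters, factor peaks were scarce among all genes, so a count of 0 of 8 is near the general share. BMAL1 overlapped the promoters of 0 of the 8 genes, against 1.18% of the 17492 genes with a listed promoter. CLOCK overlapped 1 (Txnip), against 1.64%, and PDX1 overlapped 0, against 0.875%. H3K4me2 overlapped a promoter of 5 (Slc2a1, Slc2a2, Pfkl, Pfkm, Txnip), against 45.3%. H3K27ac overlapped a promoter of 5 (Slc2a1, Slc2a2, Pfkl, Glud1, Mlxipl), against 37.6%, and H2A.Z of 2 (Pfkm, Glud1), against 21.7%. At Glud1 the H2A.Z interval began 33 bp after the start and did not cover it.

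**Figure D1:**
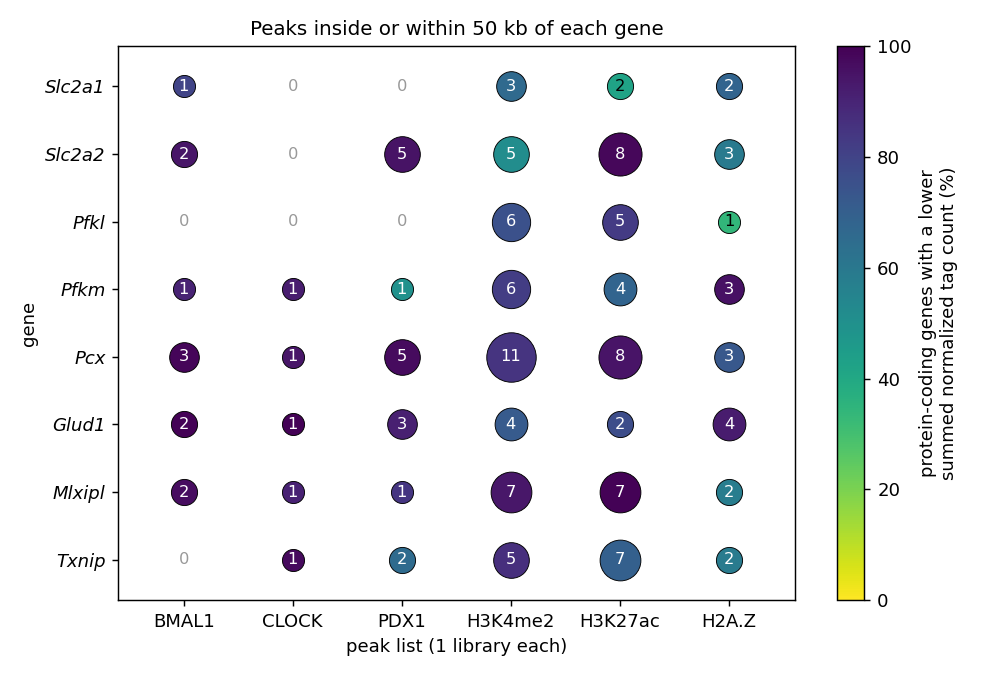
Peaks at the 8 genes (rows) in the 6 lists (columns). The number and the dot size give the peaks inside or within 50 kb of the gene, and the colour gives the percentage of protein-coding genes with a lower summed normalized tag count in that list; the darkest H3K27ac dots are Mlxipl (99.6%) and Slc2a2 (98.2%), and Pfkl has no BMAL1, CLOCK or PDX1 peak.

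**Figure D2:**
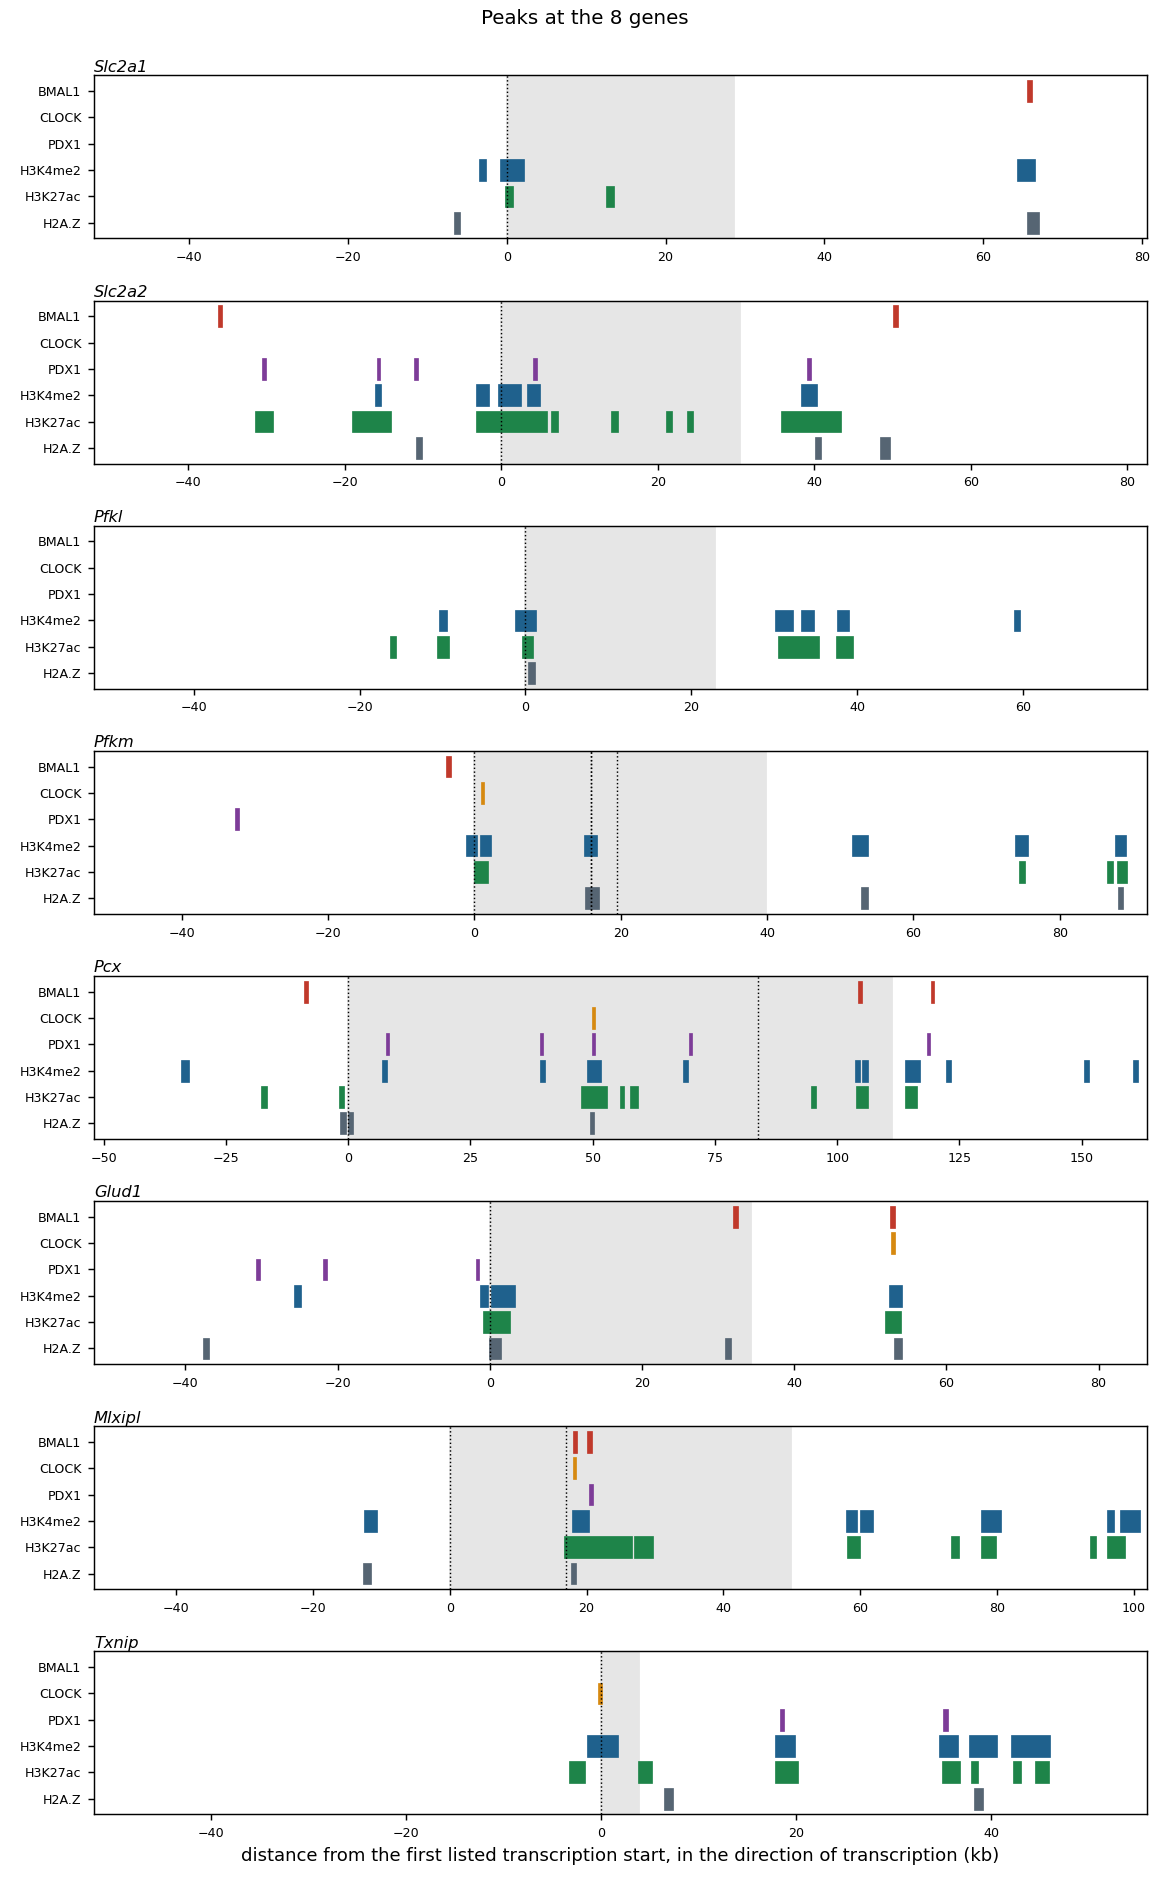
Positions of all peaks in the 6 lists around each gene. The horizontal axis is the distance from the first listed transcription start in kb, in the direction of transcription; grey shows the gene span, dotted lines show the listed starts, and bars show peaks at their true width with an outline that widens the narrow factor peaks. The CLOCK bar sits at the start of Txnip, inside Pcx, Pfkm and Mlxipl, and beyond the end of Glud1.

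Of the 2 glucose transporters, Slc2a2 had 23 peaks over the 6 lists and Slc2a1 had 8. Slc2a1 encodes GLUT1, the transporter of most tissues, and spans chr4:119108745-119137330. Its start lay in an H3K4me2 interval with a normalized tag count of 140.6 (tags per 10000000 in the library; 95% Poisson interval 126.7 to 155.5) and in an H3K27ac interval of 78.9 (64.6 to 95.5), which ranked 11643 of 29735 by tag count. These intervals, here and below, cover counting error only. An H3K27ac interval of 28.3 was centred 12954 bp into the gene. The summed H3K27ac count of 107.2 exceeded that of 42.1% of protein-coding genes, the lowest such standing among the 8.

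Slc2a1 had 1 BMAL1 peak, at chr4:119174452-119174782, with a normalized tag count of 9.31 (4.81 to 16.3) and a score of 13, the threshold of the list. The authors' peak caller gave this score, which in the factor lists nearly equals the tag number. This peak lay 37.3 kb beyond the gene and 422 bp from the start of Zfp691, inside the Slc2a1 window's highest-scoring H3K4me2 interval (125.9, score 90) and on its highest-scoring H2A.Z interval (29.7, score 38). The nearest PDX1 peak to the Slc2a1 start was 115631 bp away and the nearest CLOCK peak 361048 bp away. No PDX1 or CLOCK peak was therefore detectable at Slc2a1 at this depth.

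Slc2a2 spans chr3:28697903-28728361, and its neighbourhood was broadly acetylated. An H3K27ac interval of 8819 bp at chr3:28694853-28703672 covered the start with a normalized tag count of 949.4 (898.0 to 1002.9), ranking 343 of 29735, in the top 1.15%. The count of a mark interval is a total over its width, so here and below wide intervals rank high partly by width. Per kb this interval held 108, against 102 for the H3K27ac interval over the Slc2a1 start and 167 for that over the Pfkl start. Other large H3K27ac intervals lay 9.1 kb beyond the gene (669.4, in the top 2.58%), 16.5 kb before it (390.9) and 30.3 kb before it (183.2). The other 4 of its 8 H3K27ac intervals were inside the gene, from 10.4 to 20.8, below the list median of 49.1. The summed count of 2253.8 was higher than at 98.2% of genes. Part of that sum, the intervals of 390.9 and 183.2, had the neighbouring gene Tnik as the gene holding or nearest to them. Their nearest transcription start was that of Slc2a2.

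PDX1 occupied the same stretch of chromatin. Slc2a2 had 5 PDX1 peaks, and 4 of them lay on its 4 largest H3K27ac intervals. The highest was at chr3:28737130-28737364, 8.9 kb beyond the gene, with 20.4 (14.6 to 27.8) and a score of 41, in the top 10.6% of the PDX1 list. The peak inside the gene had 10.7 (6.64 to 16.4), and the others, 10.9 to 30.3 kb before the gene, had 14.3, 15.8 and 17.9. For those of 14.3 and 15.8 the gene holding or nearest to the peak was Tnik, and the nearest start that of Slc2a2. The peak of 17.9 was the 1 of the 5 without H3K27ac.

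Within the 50 kb window the clock factors were weak or absent. The BMAL1 peaks at chr3:28748149-28748479 (10.1, score 14) and chr3:28661812-28662142 (8.53, score 13) lay 19953 and 35926 bp outside the gene and overlapped no other list. For the peak of 8.53 the gene holding or nearest to it was Tnik. The nearest CLOCK peak to the Slc2a2 start was 83183 bp away, beyond the window. Of the 5 H3K4me2 intervals, the one over the start had 50.2 and the largest had 53.2, both above the list median of 28.9, and the 2 with the highest score (41) had 40.9 inside the gene and 14.6 before it. H2A.Z did not reach the start, and its highest-scoring interval (score 16, rank 6222 of 26455 by tag count) lay 18.6 kb beyond the gene.

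**Figure D3:**
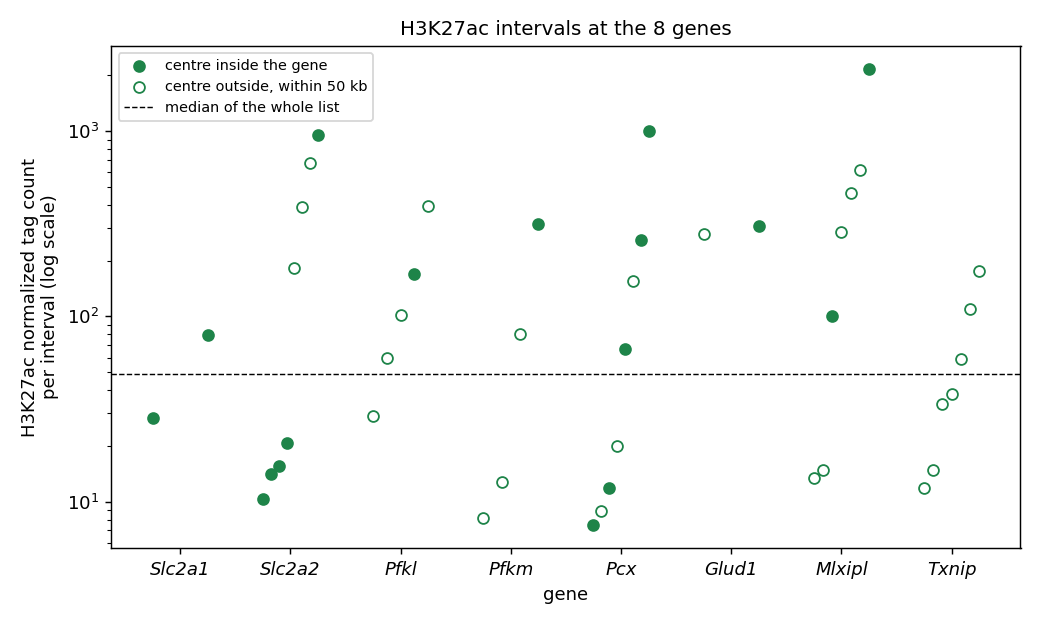
H3K27ac normalized tag count (vertical axis, log scale) of each interval at the 8 genes; each point is 1 interval, filled where its centre is inside the gene and open where it is outside but within 50 kb. The dashed line is the median of the whole list, 49.1; the highest points are Mlxipl at 2169.8, Pcx at 1002.2 and Slc2a2 at 949.4.

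Of the phosphofructokinases, the liver-type Pfkl carried marks alone, and the muscle-type Pfkm had a peak in all 6 lists. Pfkl spans chr10:77986947-78009807 on the minus strand. Its start lay in H3K4me2 (152.6, 138.1 to 168.1) and in H3K27ac (169.8, 148.5 to 193.3, in the top 21.3%), and an H2A.Z interval of 9.18 began 394 bp into the gene. The highest-scoring H3K27ac interval (score 41) was small, at 29.0, and 16.0 kb before the gene. The one with the most tags, 393.1, lay 10.1 kb beyond the gene, centred 1784 bp from the start of Cfap410, and the highest-scoring H3K4me2 interval (67.5, score 73) was at Cfap410 too. The nearest CLOCK, PDX1 and BMAL1 peaks to the Pfkl start were 159868, 235870 and 564503 bp away.

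Pfkm spans chr15:98092589-98132447 and has 4 listed starts. An H3K27ac interval of 314.2 (285.0 to 345.7, in the top 9.94%) began 72 bp after the first start and covered the start of Senp1, a SUMO protease gene, its centre 73 bp from that start. The first Pfkm start itself lay in an H3K4me2 interval of 78.7. The CLOCK peak at chr15:98093609-98093813 had 8.38 (4.69 to 13.8) and a score of 15, and lay in the H3K27ac interval of 314.2 and in the window's highest-scoring H3K4me2 interval (59.6, score 103). Its centre was 1122 bp from the first Pfkm start and 142 bp from the Senp1 start, so it was nearer to Senp1. The BMAL1 peak at chr15:98088846-98089176 had 11.6 (6.51 to 19.2) and a score of 16, lay 3.6 kb before Pfkm within Senp1, and overlapped no other list. The PDX1 peak, 32.5 kb before the gene, had 7.67 (4.29 to 12.6) and a score of 15, and ranked 23358 of 34883 by tag count.

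None of the 4 Pfkm starts lay in H3K27ac, and H2A.Z covered a pair of them. The H2A.Z interval at chr15:98107809-98109449 covered the middle pair of starts with 48.1 (38.6 to 59.2). It ranked 189 of 26455 by tag count, in the top 0.714%, the highest such rank of the 20 H2A.Z intervals at the 8 genes. H3K4me2 (82.8) covered the same starts, and the nearest H3K27ac interval was 14139 bp away. The highest-scoring H2A.Z interval of the window (25.9, score 43) was at Asb8, and per kb it held more than the one over the starts (33.6 against 29.3). The fourth start, at 98112060, was outside all 6 lists, 2611 bp from the H2A.Z interval.

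The windows of the mitochondrial enzymes held the highest BMAL1 and CLOCK peaks of the 8 genes, beyond the end of Glud1, and the highest PDX1 peak, inside Pcx. All lay away from the listed starts, and the PDX1 peak at Mlxipl was nearly as high (37.3, 29.2 to 46.9). Pcx, which encodes pyruvate carboxylase, spans chr19:4510472-4621752. At chr19:4558211-4563149, inside the gene and more than 30 kb from either listed start, lay an H3K27ac interval of 1002.2 (949.4 to 1057.2), ranking 303 of 29735, in the top 1.02%. Within it a PDX1 peak at chr19:4560599-4560833 had 38.3 (30.2 to 48.0) and a score of 76, in the top 2.14% of its list. A CLOCK peak at chr19:4560536-4560740 had 10.6 (6.39 to 16.6) and a score of 21 and overlapped that PDX1 peak. H3K4me2 (100.1) and H2A.Z (8.64) overlapped the same site, and BMAL1 did not.

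The BMAL1 peaks of Pcx lay elsewhere. The highest, at chr19:4614918-4615248, had 12.4 (7.09 to 20.2) and a score of 16, 584 bp from the start of Lrfn4, which is nested near the 3′ end of the Pcx span. It lay on H3K27ac (259.9, score 45, the highest H3K27ac score of the window) and overlapped an H3K4me2 interval (43.5) only at its edge. The others, at chr19:4501629-4501959 (9.31, score 13) and chr19:4629828-4630158 (10.1, score 13), lay 8.7 kb before and 8.2 kb beyond the gene and overlapped no mark. The other 4 PDX1 peaks had between 6.64 and 34.8. The peak of 34.8, in the top 2.87% of its list, was 7.5 kb beyond Pcx and on no mark.

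Neither listed Pcx start was covered by a mark. H2A.Z intervals flanked the upstream start, with 13.5 before it and 19.4 (score 23) beginning 124 bp after it. The nearest H3K27ac interval there had 8.94 and ended 1102 bp away, and the nearest H3K4me2 interval was 7145 bp away. At the downstream start the nearest interval of any mark was H3K27ac at 11005 bp. The highest-scoring H3K4me2 intervals of the window (63.3 and 43.5, both score 75) were at Lrfn4.

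Glud1, which encodes glutamate dehydrogenase, spans chr14:34310727-34345033. A site 18.6 kb beyond its end carried the strongest clock-factor peaks in the windows of the 8 genes. BMAL1 at chr14:34363491-34363821 had 55.8 (43.7 to 70.3) and a score of 77, rank 25 of 4125. CLOCK at chr14:34363595-34363799 had 52.5 (42.4 to 64.3) and a score of 94, rank 20 of 1378. The peaks overlapped each other and lay in H3K4me2 (112.1, score 126, the highest of the window) and H3K27ac (277.0), and an H2A.Z interval of 21.6 began just beyond them. The nearest transcription start to this site was that of Fam25c, 8263 bp away, so the site counts at Glud1 only through the 50 kb window. No PDX1 peak overlapped it.

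Another BMAL1 peak, inside the 3′ part of Glud1 at chr14:34342881-34343211, had 10.1 (5.37 to 17.2) and a score of 14 and overlapped nothing. The Glud1 start lay in an H3K27ac interval of 306.0 (277.2 to 337.1), ranking 3088 of 29735 by tag count, in the top 10.4%. By score (152) the same interval ranked 29 of 29735. That interval also covered the start of the neighbouring gene Shld2. H3K4me2 (172.4) and H2A.Z (38.9, score 42, in the top 1.7%) began 337 and 33 bp after the start. The 3 PDX1 peaks all lay before the gene, at 1.6 kb (12.3), 21.6 kb (19.4) and 30.4 kb (24.5, score 48, in the top 6.91%), and none was on a mark. The gene holding or nearest to all 3 was Shld2, whose start was 1405, 21428 and 30236 bp away.

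**Figure D4:**
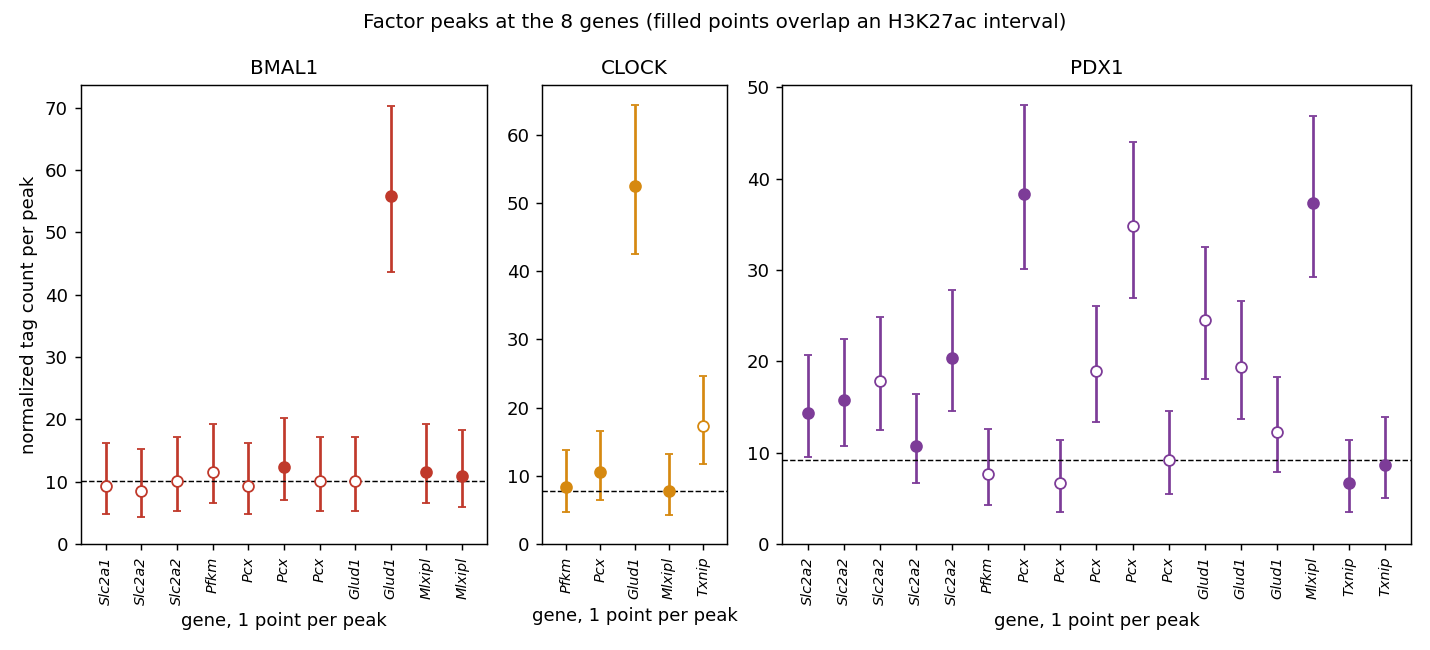
Normalized tag count (vertical axis, linear, tags per 10000000) of every BMAL1, CLOCK and PDX1 peak at the 8 genes, 1 point per peak, ordered within a gene by signed distance from its nearest start; bars are 95% Poisson intervals, filled points overlap H3K27ac, and the dashed line is the median of the whole list. The BMAL1 (55.8) and CLOCK (52.5) peaks beyond Glud1 stand above the others, and the remaining BMAL1 peaks sit between 8.53 and 12.4, around the list median of 10.1.

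In the ChREBP pair, Mlxipl had the highest summed H3K27ac count of the 8 genes and Txnip the promoter CLOCK peak. Mlxipl spans chr5:135089890-135139768. The interval at chr5:135106784-135116412, 9628 bp wide, covered the downstream start with an H3K27ac count of 2169.8 (2091.7 to 2250), ranking 39 of 29735, in the top 0.131%. The summed H3K27ac count of 3661.9 was higher than at 99.6% of genes. Part of that sum lay outside the gene, at Tbl2 (285.2), Bcl7b (464.6) and Baz1b (613.5). Per kb, the interval over the downstream start held 225, below those at Bcl7b (236) and Baz1b (262) and above that at Tbl2 (167). The upstream start, whose sequence with its E-box is shown above, was covered in none of the 6 lists, and the nearest interval was H3K4me2 at 10747 bp.

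All 3 factors were found within 4 kb of the downstream Mlxipl start. BMAL1 at chr5:135108020-135108350 had 11.6 (6.51 to 19.2) and a score of 15, and CLOCK at chr5:135108058-135108262 had 7.82 (4.28 to 13.1) and a score of 15. The peaks overlapped each other, the window's highest-scoring H3K4me2 interval (160.4, score 131), H3K27ac and H2A.Z (7.02). Another BMAL1 peak at chr5:135110166-135110496 had 10.9 (5.94 to 18.2) and a score of 14. Only at its edge did it overlap the PDX1 peak at chr5:135110460-135110694. That PDX1 peak had 37.3 (29.2 to 46.9) and a score of 73, in the top 2.33% of its list. Both BMAL1 peaks and the CLOCK peak were close to the threshold of 13 tags, with 15, 14 and 14 tags. The highest-scoring H2A.Z interval of the window (score 15, rank 2865 of 26455 by tag count) was at Vps37d, 12.1 kb before Mlxipl.

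Txnip spans chr3:96557957-96561857. The CLOCK peak at chr3:96557705-96557909 had 17.3 (11.8 to 24.6) and a score of 32, rank 120 of 1378, in the top 8.71%. Its centre was 150 bp before the start, and it shared 203 bp with the promoter shown above. The paired motif, 85 bases before the start, lay inside the peak. The nearest BMAL1 peak to the Txnip start was 410084 bp away. Over the whole CLOCK list, 18.7% of peaks overlapped BMAL1. The BMAL1 library had fewer tags (12892080) than the CLOCK library (17898856), and whether depth bears on the absence was not tested.

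The Txnip start itself lay in H3K4me2 (121.8, 108.9 to 135.8) and in no H3K27ac or H2A.Z interval. H3K27ac flanked it instead, with 58.8 (score 35, the highest of the window) before the gene, its edge 1746 bp from the start, and 38.0 at the 3′ end. The PDX1 peaks of the window, 14.6 kb (6.64, score 13) and 31.4 kb (8.69, score 17) beyond the gene, each lay on H3K4me2 and H3K27ac (175.0 and 109.5). The highest-scoring H2A.Z interval (score 21, rank 6222 of 26455 by tag count) lay 3.0 kb beyond the gene, and the highest-scoring H3K4me2 interval (129.7, score 41) was at Ankrd34a.

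**Figure D5:**
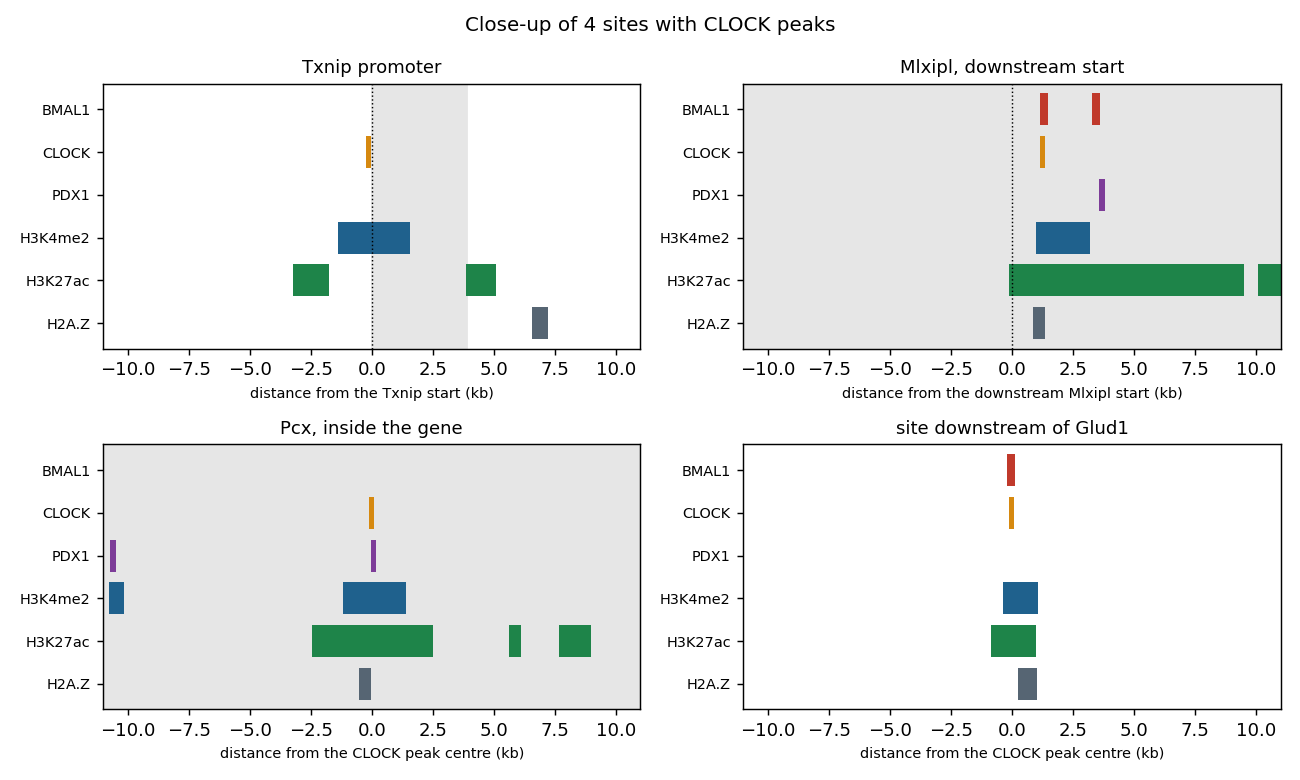
All intervals of the 6 lists within 11 kb of 4 sites, drawn to scale; the horizontal axis is the distance in kb from the start (Txnip, Mlxipl) or from the CLOCK peak centre (Pcx, Glud1), grey is the gene span and dotted lines are listed starts. CLOCK lies just before the Txnip start inside H3K4me2 with H3K27ac on either side, overlaps BMAL1 near Mlxipl and beyond Glud1, and overlaps PDX1 inside Pcx.

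Across the 8 genes, factor peaks were on marked chromatin as follows. Of the 5 CLOCK peaks, 5 overlapped H3K4me2, against 55.4% of the whole CLOCK list, and 4 overlapped H3K27ac, against 62.8%. Of the 11 BMAL1 peaks, 4 (36.4%) overlapped H3K27ac, against 18.3% of the BMAL1 list, and 2 overlapped CLOCK, against 6.25%. Of the 17 PDX1 peaks, 8 (47.1%) overlapped H3K27ac, against 21.1%, and 7 (41.2%) overlapped H3K4me2, against 23.6%. PDX1 overlapped 1 of the 5 CLOCK peaks, at Pcx, against 19.4% of the CLOCK list, and 1 of the 11 BMAL1 peaks, at Mlxipl and only at the edge, against 5.14% of the BMAL1 list. As a share of the 17 PDX1 peaks each was 5.88%, against 0.765% of the PDX1 list for CLOCK and 0.608% for BMAL1. H2A.Z overlapped 2 of 11 BMAL1 peaks, against 8.63% of that list, 2 of 5 CLOCK peaks, against 19.4%, and 1 of 17 PDX1 peaks, against 3.12%.

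The strength of the peaks sets how far these counts reach. Of the 11 BMAL1 peaks at the 8 genes, 7 scored 13 or 14, at the edge of the 13-tag limit, against 68.1% of the whole BMAL1 list. None of the 5 CLOCK peaks did, against 43.5% of that list, and 2 of the 17 PDX1 peaks did, against 19.6%. With a score of 20 or more, a limit chosen after the data were seen, BMAL1 was left at 1 gene (Glud1), against 2.61% of all genes, CLOCK at 3 (Pcx, Glud1, Txnip), against 4.65%, and PDX1 at 4 (Slc2a2, Pcx, Glud1, Mlxipl), against 37.6%. Inside the gene spans, BMAL1 was found at 3 of the 8 (Pcx, Glud1, Mlxipl), against 7.47%, CLOCK at 3 (Pfkm, Pcx, Mlxipl), against 3.25%, and PDX1 at 3 (Slc2a2, Pcx, Mlxipl), against 23.4%.

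The other genes of glucose metabolism were read the same way. In a list of 74, from hexokinases to citric acid cycle enzymes and mitochondrial carriers, 24 (32.4%) had a BMAL1 peak in their window, 17 (23.0%) a CLOCK peak and 52 (70.3%) a PDX1 peak. The shares over all protein-coding genes were 21.3%, 13.1% and 58.1%. H3K4me2 occurred at 74, H3K27ac at 70 (94.6%) and H2A.Z at 67 (90.5%), against 81.2%, 73.0% and 72.7% of all protein-coding genes. The median summed H3K27ac count was 667.9 for the 8 genes, 408.4 for the 74 and 179.4 for all protein-coding genes. A BMAL1 peak of score 20 or more was found at 6 of the 74, against 2.61% of all genes. A CLOCK peak of that score was found at 9, against 4.65%, and both factors at 6.

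The strongest was inside Pfkfb3, which encodes a bifunctional enzyme that makes the phosphofructokinase activator fructose 2,6-bisphosphate, where BMAL1 and CLOCK each scored 48. Slc2a5, a fructose transporter gene, held scores of 23 and 25 inside its span, and Mpc1, a mitochondrial pyruvate carrier gene, 29 and 23 just outside it. The peaks counted at Txn2 (41 and 45, thioredoxin of mitochondria), Ldhb (30 and 39, lactate dehydrogenase) and Eno1 (27 and 34, enolase) lay 24.1 to 38.5 kb outside those genes. Got2, Dld and Ldha had a CLOCK peak of score 21 and no BMAL1 peak of score 20 or more. The 3 highest H3K27ac scores among the 74 were at Pkm (112), Mlxip (99), which encodes the ChREBP paralogue MondoA, and Slc2a4 (92).

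Likeness was measured as the mean absolute difference, over the 6 lists, between 2 genes' percentiles of best score among all protein-coding genes. Within the 8, Pfkm was nearest to Glud1, at 12.2 percentile points, and Mlxipl to Pcx, at 13.3. Txnip had the largest difference from its nearest gene among the 8, which was Pfkl at 24.3. Among the 74 other genes the nearest were Mpc2 for Slc2a1 (12.7), Aldoc for Slc2a2 (7.1), Dlat for Pfkl (4.0), Gpd1 for Pfkm (7.4) and Glud1 (7.6), Dld for Pcx (5.1) and Mlxipl (12.0), and Pfkp for Txnip (7.1).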

How the data were processed

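ChIP-seq of Beta-TC6 cells was used, with 1 library for each of 6 targets. The reads of the 2 input libraries were not analysed here. Reads were aligned to mm10 with Bowtie 1.1.1 and processed with HOMER, in a version that the sources used here do not name, per the submitters' processing notes. Peaks were called separately per library by HOMER findPeaks, in the factor style for BMAL1, CLOCK and PDX1 and the histone style for the marks, per the file headers. The caller's tag limit for a factor peak was 13, and the peak also needed 4 times the input and 4 times the surrounding 10 kb. A histone interval needed 4 times the input, so a site below these limits enters no list. Tags recovered from the normalized count could be fewer than 13, as at the Slc2a2 BMAL1 peak of 8.53 (11 tags, score 13). Of 2 pooled inputs, 1 served BMAL1, CLOCK and H2A.Z and the other served the rest, per the file headers. The sample description of H2A.Z names the other one, but its header was taken as right.

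The normalized tag count is, per the file headers, a signal brought to a common 10000000 tags in each library. Scores are those of the authors' peak caller and were used within a list only, and the deposited fold over input, a ratio, served 1 filter. The deposited focus ratio (a fraction) and the deposited p-values were looked at and not used. Poisson intervals at 95% were computed from the tags recovered from the normalized count and the library total.

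Gene spans came from the RefSeq table of GRCm38.p6, which shares mm10 coordinates, and starts, strands and promoters from RefSeq promoter sequences. These tables did not allow peaks to be placed in exons, introns or UTRs. A peak belonged to a gene when its centre was inside or within 50 kb of the span, and peaks overlapped when they shared 1 bp. Every gene of the 8 is named, with each of its BMAL1 and CLOCK peaks and the highest-scoring peak of the other lists; of the 74 other genes, those with a BMAL1 or CLOCK score of 20 or more and the 3 highest H3K27ac scores are named. Some alpha-cell marker genes are not reported here. The members and lists were chosen with earlier results of these data known. Window and overlap functions were tested on simulated peaks. Alternatives were other windows, score and input limits, assignment to the nearest gene and a larger overlap. The software was SciPy 1.17.1, pandas 2.3.3 and NumPy 2.4.6 under Python 3.11.15, with figures by matplotlib 3.10.9.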

Additional observations from a re-analysis of the deposited data

How the results depend on the processing

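Of 96 alternative values, 50 stayed within 1.5 times the main count and 46 moved further; the cause was not tested beyond the fewer or more peaks that each setting admits. Counting peaks within 10 kb gave 7 BMAL1, 9 PDX1, 24 H3K4me2, 24 H3K27ac and 11 H2A.Z peaks, and within 100 kb 73 H3K4me2 and 41 H2A.Z. Inside the gene span, 3 genes had BMAL1 (4 peaks), 3 CLOCK (3 peaks), 3 PDX1 (6 peaks) and 5 H2A.Z (7 peaks), with 14 H3K4me2 and 17 H3K27ac intervals. Peaks in the upper 50% of their list by score numbered 7 for BMAL1, 31 for H3K4me2 and 23 for H3K27ac. With both lists of an overlap so limited, 0 BMAL1 peaks overlapped H2A.Z, 3 CLOCK peaks H3K4me2, 1 CLOCK peak H2A.Z, 2 PDX1 peaks H3K4me2 and 4 PDX1 peaks H3K27ac. At 8 times the input, 3 genes had CLOCK (3 peaks), 4 had H3K4me2 (10 intervals) and 5 had H2A.Z (5 intervals), with 7 BMAL1 and 8 PDX1 peaks and 22 H3K27ac intervals. Giving each peak to the gene that holds it or is nearest left 5 BMAL1 peaks, 8 PDX1 peaks at 3 genes, 19 H3K4me2, 22 H3K27ac and 13 H2A.Z intervals. A score of 20 or more, a limit chosen after seeing the data, left 1 BMAL1 peak at 1 gene and 3 CLOCK peaks at 3 genes. Requiring 50% of the factor peak to be covered left 1 CLOCK and 0 PDX1 peaks on H2A.Z. No paired analysis was possible because each target had 1 library. The depth of the BMAL1 and H3K27ac libraries limits which weak sites could enter their lists.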
